A study of Mus musculus with 4 samples.

Results

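Ectodysplasin signalling and the transcription factor genes of ectodermal and tooth placodes were followed in embryonic mouse jaw and tongue tissue. The group held 7 genes, chosen by name from the probe annotation of the arrays: Eda, Edar, Edaradd, Foxi3, Pax9, Sp6 and Sp8, among 27194 genes measured. They were covered by 14 of the 56601 usable probes. The rule used gene names and no measured value, but the members were chosen with earlier results of these data known.

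RNA came from embryos of ICR mice, an outbred stock, and the labels name no introduced allele and no agent for any group. Each tissue was taken from several embryos and hybridised to 1 single-colour Agilent array, so differences between embryos are not visible. MMA was the medial mandibular arch at E9.5, from 12 embryos. LLS was the lateral lingual swellings at E11.5 and LMA the lateral mandibular arch at the same stage, each from 4 embryos. T was the tongue at E14.5, from 4 embryos. The labels give the region as medial for MMA, LLS and T and lateral for LMA, so LLS and LMA differ in region as well as in structure. The swellings are the outgrowths on the floor of the arch that form most of the anterior tongue. With 1 array per tissue there were no replicates, so no test between tissues and no p-value was possible, and every comparison is by size alone. The same arrays serve in several of the 6 comparisons, which are therefore not independent of each other.

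Ectodysplasin, encoded by Eda, is a ligand of the tumour necrosis factor family. It binds the receptor encoded by Edar, which passes the signal through the adaptor protein encoded by Edaradd to the transcription factor NF-kB. The pathway is known for the placodes of hair, teeth and glands and for the spacing of papillae on the tongue. Foxi3 is a forkhead factor gene of early ectodermal placodes, Sp6 a zinc-finger factor gene of dental and skin epithelium, and Sp8 a zinc-finger factor gene of limb and face outgrowth. Pax9 is a paired-box factor gene of tooth mesenchyme, pharyngeal endoderm and tongue papillae.

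Signals are the processed, background-subtracted intensities of the scanner software, and a probe counts as measured where the software marks it well above background. The lowest such signal was 22.2 (MMA), 21.3 (LLS), 20.1 (LMA) and 26.7 (T). To compare arrays, log2 signals were set against the 75th percentile of each array, a signal of 422 (MMA), 456 (LLS), 507 (LMA) and 491 (T). A difference of 1 on this log2 scale is 2-fold, and genes at or past 2-fold are counted. Where only 1 of the tissues was measured, the other was set to the lowest measured level of its array or to its own value if higher, and the difference is given as at least that size. For 291 probes printed at least 10 times on each array, the SD of a single-spot log2 difference between arrays was 0.0476 to 0.0599. The error given beside each difference is that of the scanner software, which also covers dim spots. Neither covers differences between embryos or dissections.

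Of the 7 genes, 6 were measured in at least 1 tissue by their brightest probe, and 3 of them, Eda, Pax9 and Sp6, in all 4 tissues. Edaradd was measured in LLS and T, Edar in LLS and Sp8 in MMA. Foxi3 was measured in none. Of the 14 probes, 9 were measured on at least 1 array and 5 on none.

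**Figure D1:**
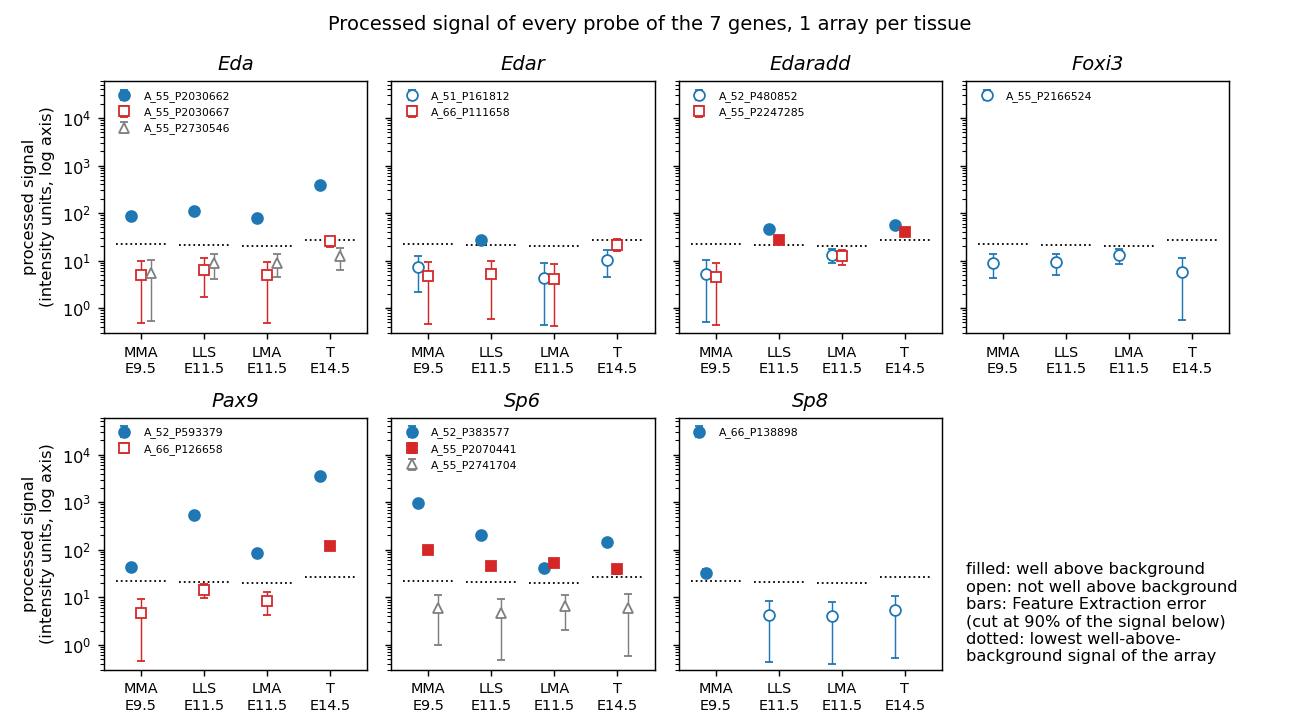
Processed signal (log axis) of every probe of the 7 genes by tissue, 1 array each. Filled symbols are well above background, open symbols are not, bars are the scanner software's error and dotted lines mark the lowest measured signal of the array. Pax9 spans signals from 44.0 in MMA to 3520 in T, and the brighter Sp6 probe from 41.8 in LMA to 947 in MMA.

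The ligand gene Eda was highest in the E14.5 tongue. Its brightest probe, A_55_P2030662, gave signals of 84.9 (MMA), 108 (LLS), 79.1 (LMA) and 392 (T). The E14.5 array stood above the other 3, which lay within 2-fold of each other. T was 3.36-fold higher than LLS (log2 difference 1.75, error 0.21), 5.12-fold higher than LMA (2.36, error 0.22) and 3.97-fold higher than MMA (1.99, error 0.22). Among the other tissues the order was LLS, MMA, LMA, in steps of 0.24 (error 0.22) and 0.37 (error 0.23), both below 2 errors. LLS and LMA differed by 0.61 (error 0.22). With normexp background correction the differences were smaller, at 1.72 for T over LMA, 1.47 for T over MMA and 1.32 for T over LLS, all still past 2-fold. The probe lies on the X chromosome at 97596039 to 97596098 (mm9, the build of the array files), on the strand of the gene.

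The other Eda probes were not well above background in any tissue. One of them, A_55_P2030667 at 97590368 to 97590427, gave signals of 4.94 (MMA), 6.50 (LLS), 4.90 (LMA) and 25.5 (T). The reading in T lay just under the lowest measured signal of that array, so no order of tissues is read from this probe. The third, A_55_P2730546, read from 5.38 in MMA to 12.6 in T. The sequence of A_55_P2030667 is shown because it was designed to another transcript record of Eda than the bright probe:
Eda A_55_P2030667: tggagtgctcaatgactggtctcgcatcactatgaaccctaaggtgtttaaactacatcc

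The receptor gene Edar was near the limit of measurement. Its brightest probe, A_51_P161812 on chromosome 10 at 58063793 to 58063851, gave signals of 7.36 (MMA), 26.7 (LLS), 4.38 (LMA) and 10.5 (T). The reading in LLS alone was well above background, by a small margin over the lowest measured signal of that array. Against the floor of the other arrays, LLS was at least 1.47-fold higher than LMA (log2 bound 0.56), at least 1.11-fold higher than MMA and at least 1.08-fold higher than T. The other probe, A_66_P111658, read 4.71, 5.12, 4.16 and 21.8 in MMA, LLS, LMA and T and was measured on no array. The result on Edar therefore rests on 1 probe.

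The adaptor gene Edaradd was measured in LLS and T and in neither part of the mandibular arch. Its brighter probe, A_52_P480852 on chromosome 13 at 12563558 to 12563617, gave signals of 5.11 (MMA), 45.5 (LLS), 13.4 (LMA) and 56.9 (T). The second probe, A_55_P2247285, gave 4.47, 27.7, 12.4 and 40.2 in the same order, with the same tissues above background. LLS was at least 2.52-fold higher than LMA (log2 bound 1.33) by the brighter probe and at least 1.53-fold higher (0.62) by the other. T was at least 2.92-fold higher than LMA (1.55) and at least 2.21-fold higher than MMA (1.14) by the brighter probe. By the second probe these bounds were 1.05 and 0.64. T minus LLS was 0.22 (error 0.29) by the brighter probe and 0.43 (error 0.36) by the other, both within 2 errors. Over MMA, the bound for LLS was 0.93, and it passed 2-fold with cyclic loess (1.17) and with the percentile over probes measured on all arrays (1.02). With normexp background correction, which adds an offset to every signal, the bounds for LLS over LMA, T over LMA and T over MMA were 0.59, 0.62 and 0.36, all under 2-fold.

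The promoter windows of Edar and Edaradd, the receptor and adaptor genes of the pathway, are printed with that of Pax9, the member with the widest range of signal. They run from 250 bases before to 50 bases after the gene's start, on the strand of the gene, from RefSeq (GRCm38.p6, another build than that of the probe positions). Capitals mark CTTTGA or CTTTGT on either strand, the core of the sites of LEF and TCF factors, which carry Wnt signals. The Edar window is chr10:58675647-58675946 on the minus strand, that of Edaradd chr13:12520401-12520700 on the minus strand and that of Pax9 chr12:56695221-56695520 on the plus strand:
Edar: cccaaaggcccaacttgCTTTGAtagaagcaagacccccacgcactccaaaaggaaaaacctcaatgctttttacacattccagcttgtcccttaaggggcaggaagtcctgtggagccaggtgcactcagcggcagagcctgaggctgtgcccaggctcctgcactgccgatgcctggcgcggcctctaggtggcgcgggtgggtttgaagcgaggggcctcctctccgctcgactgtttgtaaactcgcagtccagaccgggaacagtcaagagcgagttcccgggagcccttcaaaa
Edaradd: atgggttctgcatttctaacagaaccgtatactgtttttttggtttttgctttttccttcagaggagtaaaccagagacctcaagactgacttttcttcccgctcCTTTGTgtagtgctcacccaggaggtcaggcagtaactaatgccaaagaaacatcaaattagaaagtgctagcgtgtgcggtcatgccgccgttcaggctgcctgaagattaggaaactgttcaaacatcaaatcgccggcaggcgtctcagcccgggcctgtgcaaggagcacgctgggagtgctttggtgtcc
Pax9: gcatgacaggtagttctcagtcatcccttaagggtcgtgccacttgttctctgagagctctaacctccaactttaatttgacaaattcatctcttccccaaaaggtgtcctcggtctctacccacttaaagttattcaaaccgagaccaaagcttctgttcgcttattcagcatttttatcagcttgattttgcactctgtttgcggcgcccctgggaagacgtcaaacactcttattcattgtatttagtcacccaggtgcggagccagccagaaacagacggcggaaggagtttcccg

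These letters occurred once in the Edar window, at -233 from the start, once in the Edaradd window, at -145, and not in those of Pax9, Eda or Foxi3. Among all 8 windows of the 6 genes with an entry, 3 held the motif, and among all 32851 windows of that length 31.2% did. Sp6 had no entry. The count among the members is near the share of all windows. The shares of G and C were 58.7% for Edar, 49.3% for Edaradd and 47.0% for Pax9.

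Pax9 had the widest range of the members by its brightest probe. A_52_P593379 on chromosome 12 at 57811169 to 57811228 gave signals of 44.0 (MMA), 527 (LLS), 86.6 (LMA) and 3520 (T). LLS and T stood above both parts of the mandibular arch. LLS was 6.77-fold higher than LMA at the same stage (log2 difference 2.76, error 0.22) and 11.1-fold higher than MMA (3.47, error 0.27). T was 6.20-fold higher than LLS (2.63, error 0.20), 42.0-fold higher than LMA (5.39, error 0.22) and 68.9-fold higher than MMA (6.11, error 0.27). LMA exceeded MMA by 0.71 (error 0.28), which is under 2-fold. With normexp background correction the differences were smaller, at 2.05 for LLS over LMA, 2.23 for LLS over MMA, 4.50 for T over LMA and 4.69 for T over MMA. The median over both Pax9 probes gave 1.83, 2.49, 4.62 and 5.28 for the same pairs. All of these stayed past 2-fold.

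A second Pax9 probe, A_66_P126658, was measured in T, at 119, and not in MMA (4.64), LLS (14.3) or LMA (8.47). By this probe T was at least 5.16-fold higher than LLS (log2 bound 2.37), at least 6.09-fold higher than LMA (2.61) and at least 4.59-fold higher than MMA (2.20). Its 60 bases are given a span of 2871 bases on chromosome 12, from 57798152 to 57801022, a span longer than the probe, as for one that crosses a splice junction. The sequence is shown since it is dim on the same RNA on which the other probe is bright:
Pax9 A_66_P126658: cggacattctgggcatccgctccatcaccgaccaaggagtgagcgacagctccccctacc

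Sp6 was highest in the E9.5 arch by both of its measured probes. The brighter, A_52_P383577 on chromosome 11 at 96885862 to 96885921, gave signals of 947 (MMA), 206 (LLS), 41.8 (LMA) and 143 (T). MMA stood above the rest and LMA below, with LLS and T between them. LLS was 4.96-fold lower than MMA (log2 difference -2.31, error 0.21), LMA 27.2-fold lower (-4.77, error 0.25) and T 7.72-fold lower (-2.95, error 0.21). LLS was 5.48-fold higher than LMA (2.45, error 0.25), and T 3.52-fold higher than LMA (1.82, error 0.25). T minus LLS was -0.64 (error 0.21), under 2-fold.

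The second Sp6 probe, A_55_P2070441 at 96885252 to 96885311, gave 97.4 (MMA), 45.4 (LLS), 52.4 (LMA) and 39.0 (T). It also put MMA highest, by 2.32-fold over LLS, 2.23-fold over LMA and 2.90-fold over T. Between the other 3 tissues its differences were within 2 errors. LLS minus LMA was -0.054 (error 0.29), T minus LMA -0.38 (error 0.34) and T minus LLS -0.33 (error 0.35). The higher level of Sp6 in LLS and T than in LMA therefore rests on 1 probe, while the higher level in MMA is seen with both. Their log2 differences for LMA minus MMA were -4.77 and -1.16. With normexp background correction the bright probe gave -3.50 for that pair, 1.49 for LLS minus LMA and 1.03 for T minus LMA, and the median over the probes gave -2.96, 1.20 and 0.72.

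The third Sp6 probe, A_55_P2741704, was measured on no array and read from 4.71 in LLS to 6.69 in LMA. The array files place it at 96883040 to 96883099 on the strand opposite to both other Sp6 probes, so it would report a transcript from the other strand. Its sequence is:
Sp6 A_55_P2741704: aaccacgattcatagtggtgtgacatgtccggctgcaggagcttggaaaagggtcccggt

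Sp8 was measured in the E9.5 arch alone. Its single probe, A_66_P138898 on chromosome 12 at 120090880 to 120090939, gave 33.2 (MMA), 4.27 (LLS), 4.05 (LMA) and 5.32 (T). Since 33.2 lies close to the lowest measured signals, the bounds are small: LLS was at least 1.68-fold lower, LMA at least 1.98-fold lower and T at least 1.45-fold lower than MMA. With no floor under dim values the log2 differences were -3.07, -3.30 and -2.86. The bound for LMA, -0.99 on the log2 scale, passed 2-fold with quantile scaling (-1.23) and cyclic loess (-1.13).

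Foxi3 was not detectable at this signal. Its single probe, A_55_P2166524 on chromosome 6 at 70910998 to 70911057, gave 8.98 (MMA), 9.52 (LLS), 12.9 (LMA) and 5.65 (T), each with an error of 4.43 to 5.68. No fold is given between values that are all below the measured range. The sequence is shown because the whole result on Foxi3 rests on it, with the stop codon that ends its first frame in capitals:
Foxi3 A_55_P2166524: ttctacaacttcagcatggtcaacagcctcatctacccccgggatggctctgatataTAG

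**Figure D2:**
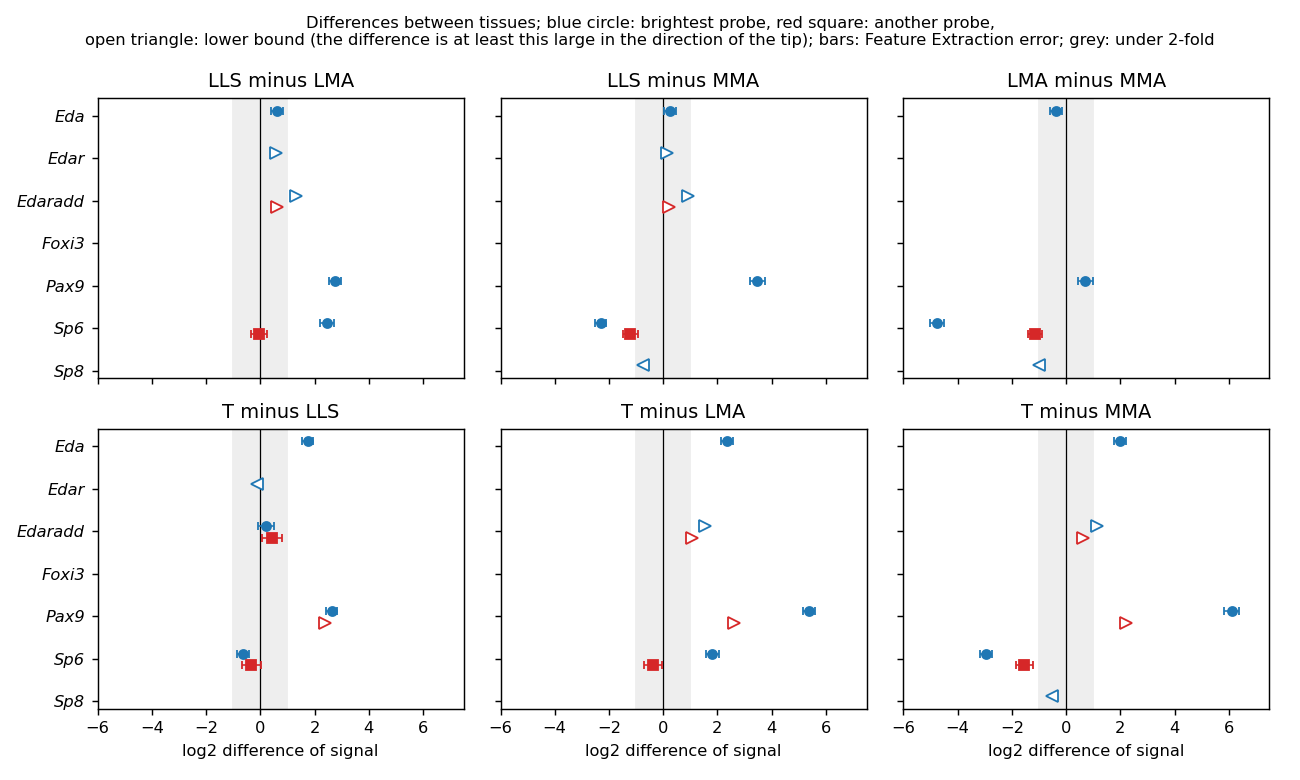
Log2 differences of signal for the 6 comparisons of tissues. Circles are the brightest probe of a gene, squares another probe, open triangles lower bounds and bars the scanner software's error, and the grey band marks differences under 2-fold. The Sp6 probes part in LLS minus LMA, at 2.45 and -0.054, while the Pax9 difference is 2.76.

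LLS was set against LMA to ask how the tongue swellings differ from the lateral mandibular arch at E11.5. Pax9, Sp6 and Edaradd, 3 of the 5 members compared, were higher in LLS by 2-fold or more, and 0 were lower by as much. The background was 3.62% of 17737 genes higher in LLS and 2.88% lower. Edar and Edaradd entered this comparison through LLS alone, since neither was measured in LMA, and so could not be called lower. By the second probe, Sp6 gave -0.054 and Edaradd a bound of 0.62, both under 2-fold. Epithelial markers differed in the same direction, 13 of 16 being higher in LLS by 2-fold or more and 0 lower (median 2.62). Single markers ranged from 0.23 for the brightest probe of Trp63 to 3.38 for the simple-epithelium keratin gene Krt8. Pax9 (2.76) and the bright Sp6 probe (2.45) lay within this range. The share of epithelium in each dissection was not measured, and its part in these differences was not tested. In such mixed tissue, fewer cells of a type and less RNA per cell cannot be told apart.

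LLS against MMA spans E9.5 to E11.5 as well as a change of dissected structure. Of 6 members compared, Pax9 was at least 2-fold higher in LLS and Sp6 at least 2-fold lower. Over all 17106 genes compared, 9.68% were higher and 5.59% lower, so 1 of 6 in each direction is a count too small to read against them. Edaradd just missed 2-fold as a bound (at least 1.90-fold higher in LLS). Edar and Edaradd entered through LLS alone and so could not be called lower. Sp8 entered through MMA alone and so could not be called higher. Epithelial markers were mixed here, with 6 of 16 higher and 2 lower and a median of 0.11. Krt8 (-1.26) and Krt18 (-1.62) were the lower ones.

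In LMA against MMA, Sp6 was at least 2-fold lower in LMA and 0 of the 4 compared members were higher, with 7.16% of 17735 genes lower and 10.5% higher. Sp8 entered through MMA alone, the tissue where it was measured, and so could not be called higher in LMA. Epithelial markers were lower in 11 of 16 cases and higher in 2, with a median of -2.14. Krt8 (-4.64) and Krt18 (-3.67) were lower by the most, and Krt5 (5.69) and Krt15 (1.26) were higher. The share of higher among all 2-fold calls was 59.5%, and 69.6% when the percentile was taken over probes measured on all arrays.

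From LLS to T, Eda and Pax9 were at least 2-fold higher in T and 0 of the 5 compared members at least 2-fold lower, against 12.8% and 6.03% of 17736 genes. Edar entered through LLS alone, the tissue where it was measured, and so could not be called higher in T. Epithelial markers were higher in 6 of 16 cases and lower in 3, with a median of 0.54. The keratin genes of stratified epithelium Krt5 (5.34), Krt14 (5.36) and Krt15 (2.94) were among the higher ones.

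By the brightest probe, T exceeded LMA by at least 2-fold for all 4 members compared, Eda, Edaradd, Pax9 and Sp6, with 0 lower. Edaradd entered through T alone, the tissue where it was measured, and so could not be called lower. The second Sp6 probe gave -0.38. Of 18286 genes, 14.1% were higher in T and 7.26% lower. Here 15 of 16 epithelial markers were higher too, with a median of 3.16. Against MMA, T was at least 2-fold higher for Eda, Edaradd and Pax9 and at least 2-fold lower for Sp6, of 5 compared. Edaradd again entered through T alone and could not be called lower, and Sp8 entered through MMA alone and could not be called higher. In that comparison 18.3% of 17637 genes were higher and 13.8% lower. The share of higher among these calls was 57.0%, against 73.3% after cyclic loess and 69.1% with the percentile over probes measured on all arrays. For this pair 7 of 16 epithelial markers were higher and 3 lower (median 0.61).

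All 16 epithelial markers were well above background in all 4 tissues, so none was at 0. Their summed signal, in units of each array's 75th percentile, was 160 (MMA), 126 (LLS), 32.0 (LMA) and 694 (T). The lowest sum was in LMA, the tissue where the bright Sp6 probe was lowest. The second Sp6 probe was not lowest there. Eda also read lowest in LMA, but within 2 errors of MMA (step 0.37, error 0.23). Pax9 had another order, since its lowest signal was in MMA. The MMA sum rested largely on Krt8 and Krt18. Without this pair, left out after seeing the data, the sums were 39.2 (MMA), 84.1 (LLS), 23.7 (LMA) and 640.0 (T). MMA fell below LLS while LMA stayed lowest and T highest. The brightest markers in T were Krt15 (signal 91330), Krt14 (86802) and Krt5 (85625), and no sum was taken without them. The high sum of T therefore leans on these keratin genes, while the median marker difference of T minus LLS was 0.54. Arch mesenchyme markers were all measured in MMA, LLS and LMA, with 7 of 9 in T, where Dlx5 and Dlx6 were not. Skeletal muscle markers were measured in 6 of 6 cases in LLS, LMA and T and in 2 of 6 in MMA. Their summed signal was highest by far in T, at 634, against 26.6 in LMA, 7.94 in LLS and 0.47 in MMA. The part of this change of tissue makeup in the higher levels of Eda and Pax9 in T was not tested. Of 7 cerebellum markers, included because the extraction text of the labels names that tissue, Gabra6, Cbln3 and Neurod1 were measured in no tissue, while Pcp2, Cbln1 and Zic1 were measured in all 4 and En2 in MMA and LMA. Pcp2 was highest in LMA (1560.1) and Cbln1 in MMA (794). The part of such RNA in the results was not tested. Pharyngeal endoderm markers, of interest for Pax9, were at least 2-fold higher in LLS than in LMA for 4 of 6 compared and lower for 1. The shares of all genes compared were 3.62% and 2.88%. Their summed signal was 4.97 (MMA), 15.1 (LLS), 0.99 (LMA) and 31.7 (T), an order that differs from that of Pax9 in MMA and LMA. Foxa2 was not measured in LMA, and Nkx2-1 in no tissue.

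**Figure D3:**
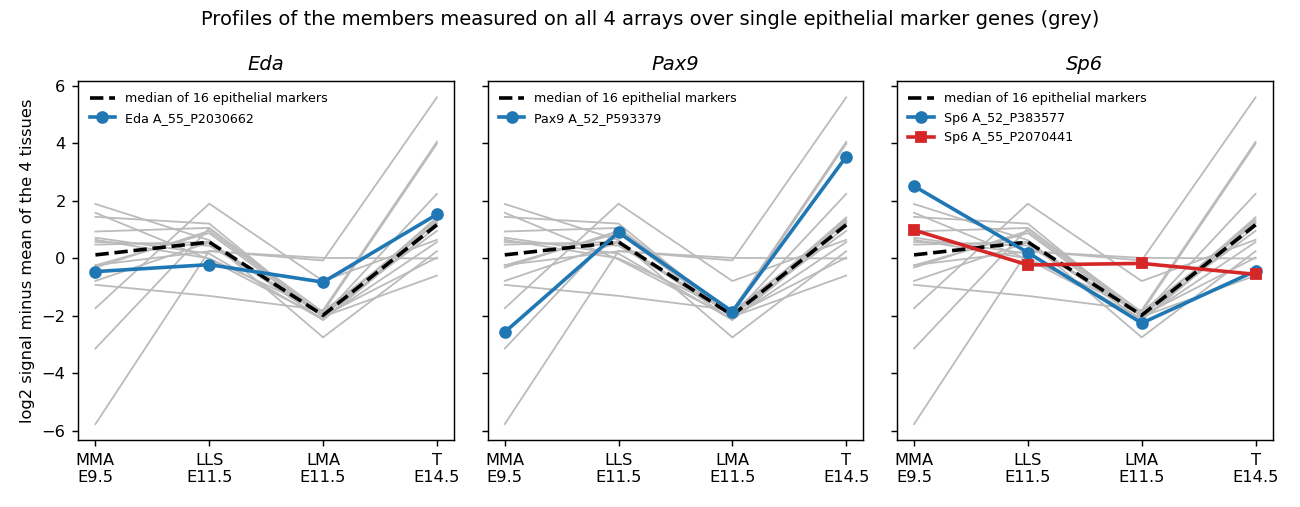
Log2 signal of Eda, Pax9 and Sp6 by tissue, centred on the mean of the 4 tissues, over the 16 single epithelial markers (grey) and their median (dashed). Like the median marker, Pax9 (2.76) and the bright Sp6 probe (2.45) lie higher in LLS than in LMA, while the second Sp6 probe does not (-0.054).

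Genes with the most similar profile were sought for the 3 members measured in all 4 tissues, among 12964 genes with a symbol of their own that were measured in all of them. Likeness was the largest gap between profiles centred on their means, over 4 tissues. For Pax9 the closest were Itgb4 (largest log2 gap 0.50), Fxyd3 (0.57) and Krt15 (0.57). For Sp6, by its bright probe, Atp2c2 (0.60) and Krt8 (0.68) were among the closest. Eda had closer matches, Acbd4 (0.09), Cyp2j9 (0.10) and Arhgap29 (0.15), and 141 genes lay within a gap of 0.5, so its profile is a common one on these arrays. For Pax9 1 gene lay within that gap and for Sp6 0.

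Beyond the members, the alternative receptors and the NF-kB machinery were described by a list of 14 genes, all with a probe. Most varied little. In LLS against LMA 0 of 13 were at least 2-fold higher and 1 lower, with a median of 0.01. Over all genes compared 3.62% were higher and 2.88% lower. In T against MMA 4 of 14 were higher and 0 lower (median 0.24), against 18.3% and 13.8% of all genes compared. That count is too small to read against these shares. The higher ones were the receptor genes Eda2r (1.38) and Tnfrsf19 (1.45) and the NF-kB subunit genes Relb (1.45) and Nfkb1 (1.05). The other probes of Relb gave -0.03 and a bound of at least 0.61, and those of Nfkb1 gave 1.39 and 0.85. Tnfrsf19, which encodes a receptor related to Edar, gave signals of 1989 (MMA), 1046 (LLS), 2427 (LMA) and 6306 (T), so LLS was the lowest and T the highest. It was the 1 gene of the list at least 2-fold lower in LLS than in LMA (-1.06), and by its other probe the difference was under 2-fold (-0.81). Eda2r, the receptor for another splice form of ectodysplasin, was measured in MMA (31.6) and T (96.0) and not in LLS (21.8) or LMA (11.7). The kinase subunit genes Chuk, Ikbkb and Ikbkg and the adaptor gene Traf6 stayed within 2-fold by their brightest probe in all 6 comparisons, as did the inhibitor gene Nfkbia.

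Genes known as targets or partners of the pathway in placodes, 15 in the list, went both ways. In LLS against LMA, 3 of 12 were at least 2-fold higher, Shh (6.55), Fst (1.22) and Sostdc1 (signals of 4836 in LLS and 1899.95 in LMA), and 1 was lower, Dkk1 (-3.14). The median was -0.38, and 3.62% of all genes compared were higher and 2.88% lower. From LLS to T, 5 of 13 were higher and 2 lower (median 0.55), against 12.8% and 6.03% of all genes compared. The Wnt ligand gene Wnt10a led, with signals of 284 (MMA), 287 (LLS), 326 (LMA) and 4898 (T), so that T alone stood out (3.99 over LLS). The chemokine gene Cx3cl1 was 2.65 higher and Lrp4 1.46 higher by its brightest probe, against -0.13, 0.12 and 1.01 by the other Lrp4 probes. Dkk4, a secreted Wnt antagonist gene known as a target of ectodysplasin, was measured in MMA (45.9) and T (86.9) and not in LLS (5.47) or LMA (18.3). T was thus at least 1.92 higher than LLS on the log2 scale. Bambi (-1.49) and Shh (-1.51) were lower in T than in LLS. Fgf20, another known target, and Cxcl10 were measured in no tissue.

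**Figure D4:**
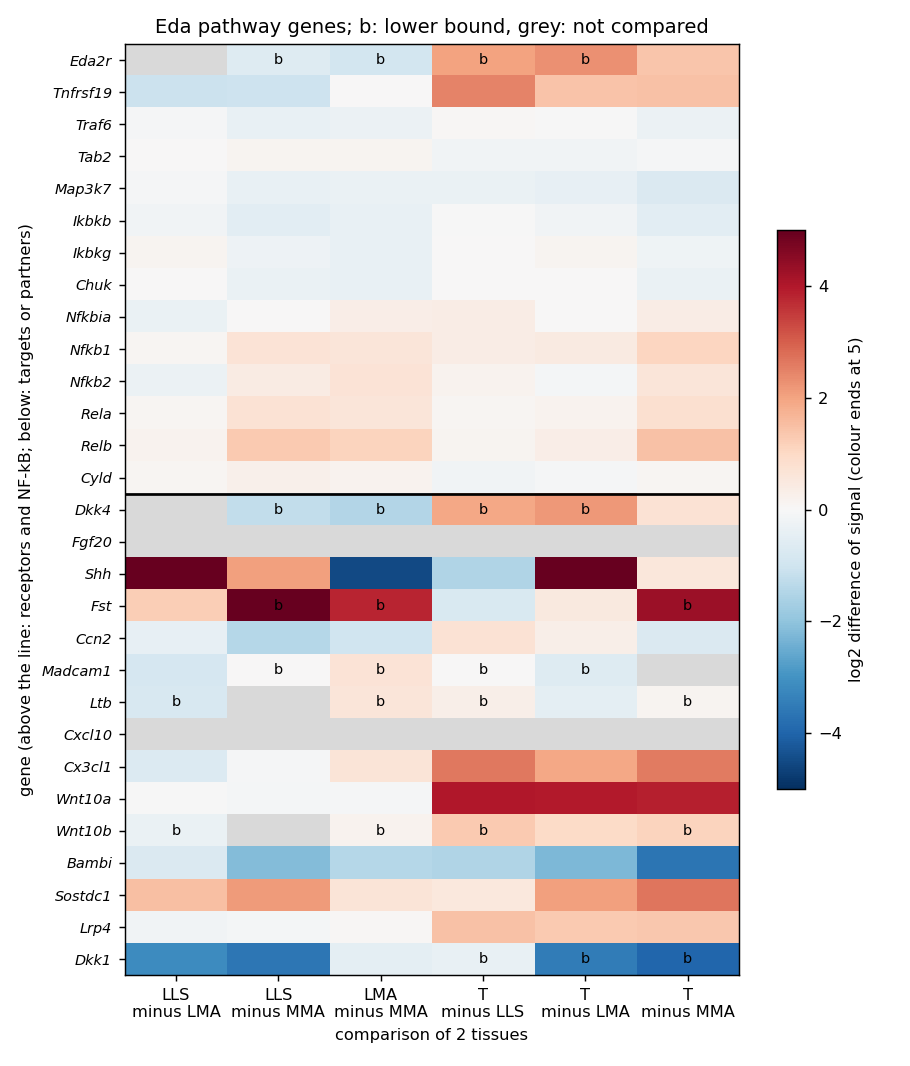
Log2 differences of signal for the receptor and NF-kB genes (above the line) and for known targets or partners (below) in the 6 comparisons, with b for a lower bound and grey where neither tissue was measured. Wnt10a is about 4 higher in T than in each other tissue (3.99 over LLS), while the kinase genes stay pale.

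The other tooth genes gave the setting of the placode factors. Among genes of tooth epithelium, the homeobox gene Dlx2 was higher in LLS than in LMA (1.08). Trp63, a master gene of stratified epithelium, differed by 0.23 at its brightest probe and by 2.56, 2.56 and 2.30 at its others. From LLS to T, the ligand genes Fgf4 (at least 2.38) and Bmp2 (1.16) were higher, and Dlx2 (-2.92) and Bmp4 (-1.25) were lower. Fgf8, the early oral ectoderm ligand gene, had its highest signal in MMA (2140) and was lower in LLS (-4.48) and LMA (-4.14), the same direction as Sp6 and Sp8. Of 11 genes of tooth mesenchyme, 6 of the 10 compared were lower in T than in LLS and 0 higher (median -1.89). This is the opposite direction to Pax9. Over all genes compared 6.03% were lower in T and 12.8% higher. Msx1, a homeobox gene that acts with Pax9 in tooth mesenchyme, gave 11093 (MMA), 1366 (LLS), 12709.7 (LMA) and 294 (T). It was lower in LLS than in LMA (-3.06) and in T than in LLS (-2.32), where Pax9 was higher in both. Between LLS and LMA the tooth mesenchyme list was split, with 3 of 11 at least 2-fold higher in LLS and 2 lower. Its median was -0.04, and 3.62% of all genes compared were higher and 2.88% lower. Osr2 (3.28), Lhx8 (1.51) and Dlx1 (1.51) were higher in LLS, as was Pax9. The differences of Osr2 (2.35) and Lhx8 were smaller by their other probes. Msx2 (-3.46, and -3.53 by its other probe) was lower in LLS, as was Msx1.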

How the data were processed

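Single-colour Agilent mouse arrays of 4 tissues, 1 array each, were read from the deposited scanner files. Per the file headers, Feature Extraction 10.7.1.1 made the deposited intensity values by background subtraction with spatial and multiplicative detrending, with no scaling between arrays, while the submitters' processing notes give version 9.5.1.1. Headers name mm9 for probe positions. The deposited value table holds linear signal values which, set against the scanner files, lie close to a quantile normalization of these intensities (within 0.0146 on the log2 scale for 95% of probes well above background); it served as an alternative.

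Control spots and outlier flags were left out, spots of a probe averaged, and log2 values set relative to each array's 75th percentile of all usable probes. Of 56605 probes, 32990 were named by accession, 12798 by the file's symbol and 520 through an older symbol with RefSeq tables, and 10293 stayed unnamed. The brightest probe over all arrays stands for a gene, and other probes are given where they differ. Between 57.0% and 62.9% of spots were well above background and 0 were saturated. The number of arrays, 1 per tissue, limits the precision, and all lay on 1 slide. Python 3.11.15 and R 4.3.3 with limma 3.58.1 were used, and the code was tested on simulated data.

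Named were all 7 members with all their probes, any gene of the lists of pathway, target, tooth, Sp, Pax and Foxi genes, and the 3 genes of most similar profile for each member measured in at least 3 tissues; a few of these genes are not reported here. The members and lists were chosen with earlier results of these data known. Motifs were searched in RefSeq promoter windows. Alternatives were other scalings (percentile over probes well above background on all arrays, quantile, cyclic loess), normexp background correction, no floor, other fold thresholds, other probes and the deposited value table.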

Additional observations from a re-analysis of the deposited data

How the results depend on the processing

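No paired analysis was possible because each tissue has 1 array, and for the same reason no replicate could be left out. Of the 16 member differences of at least 2-fold, 16 kept their direction under each other scaling, background correction, floor, probe summary or source of values, and 13 to 16 stayed past 2-fold (13 of the 13 measured in both tissues). Members near the lowest measured signal (Edar, Edaradd, Sp8) have bounds only, except for Edaradd in T minus LLS. This limits what can be said of them. The exception was the choice of a single other probe: by the dimmer Sp6 probe the sign turned, to -0.054 in LLS minus LMA and -0.38 in T minus LMA. The median over probes gave Edaradd 0.97 and 0.89 in LLS minus LMA and T minus MMA and Sp6 0.72 in T minus LMA. The deposited value table put the Edaradd bound for T over MMA at 0.86 and quantile scaling at 0.87. With no floor, Edar in LLS exceeded LMA by 2.76 and MMA by 1.75.

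Member counts (higher, lower) moved with no floor to 3 and 2 in LLS minus MMA and 1 and 3 in LMA minus MMA, and to 1, 1 and 2 lower in T minus LLS, LMA and MMA. At 1.5-fold they were 2 and 2 in LLS minus MMA, 1 and 2 in LMA minus MMA, and 1 lower in T minus LLS. At 4-fold 1, 2 and 1 were higher in T minus LLS, LMA and MMA. With the percentile over probes measured on all arrays, and with cyclic loess, 2 members were higher in LLS minus MMA. In LMA minus MMA 2 were lower with cyclic loess, quantile scaling and the deposited value table.

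Counts over all genes, higher and lower, are given in the order LLS minus LMA, LLS minus MMA, LMA minus MMA, T minus LLS. With normexp they were 364 and 207, 979 and 554, 1122 and 760, 1447 and 606, with 815 lower in T minus LMA. With no floor they were 1500 and 1836, 2843 and 2056, 3336 and 2269, 3549 and 2039, with 2629 lower in T minus LMA. At 1.5-fold they were 1445 and 1409, 3036 and 2748, 3170 and 3502, 3621 and 3022, then 4008 and 3251 in T minus LMA and 4778 lower in T minus MMA. At 4-fold they were 190 and 74, 552 and 153, 630 and 265, 994 and 191, then 1226 and 262 in T minus LMA and 1595 and 381 in T minus MMA. In T minus MMA, cyclic loess left 1447 lower, and genes measured in both tissues gave 2082 higher. The all-gene median shifted by 0.27 in T minus MMA and 0.17 in T minus LLS with cyclic loess. The cause of these shifts was not tested.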

Other observations

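Some relatives of the members also differed between the tissues. Among 7 other Sp genes, Sp5, a target gene of Wnt signals, gave signals of 76.4 (MMA), 355 (LLS), 113 (LMA) and 74.3 (T). LLS stood above the other 3 tissues, by 1.80 over LMA and 2.10 over MMA on the log2 scale, and T was lower than LLS (-2.36). Sp1, Sp2, Sp3, Sp4 and Sp7 stayed within 2-fold in all 6 comparisons, and Sp9 was measured in no tissue.

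Among 8 other Pax genes, Pax3 and Pax7 act in muscle precursors and neural crest. Pax3 was not measured in MMA, and LLS and LMA were higher by at least 4.06 and 4.34, while T was lower than LLS (-3.28). Pax7 was also not measured in MMA and was higher in T than in LLS by 2.56. Pax1, a gene of the pharyngeal pouches and the closest relative of Pax9, was not measured in LLS. Its level in LLS was lower than in LMA by a bound of -2.65 on the log2 scale, where Pax9 was higher by 2.76. Of the Foxi genes, Foxi2 was measured in MMA alone, at 47.8. Foxi1, at 22.7 in LLS, 26.1 in LMA and 28.6 in T, was just above background there and at 21.7 in MMA, below it.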
